A study of Mus musculus with 2 samples.

Results

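The S100 genes encode small calcium-binding proteins, and 9 of them, S100a1, S100a3, S100a4, S100a6, S100a8, S100a9, S100a10, S100a11 and S100a13, were taken by gene name from the 34745 genes of the deposited expression table. Each name matched 1 gene. Bone marrow cells of young adult mice were cultured for 7 days with GM-CSF alone (CHBP- M-MDSC) or with GM-CSF and CHBP (CHBP+ M-MDSC), and monocytic myeloid-derived suppressor cells (M-MDSCs) were then separated by flow cytometry. GM-CSF is a growth factor that drives myeloid differentiation, and CHBP is a cyclic peptide derived from erythropoietin that does not stimulate red cell production. Both cultures received GM-CSF, so the comparison is of CHBP added to GM-CSF and holds no untreated cells. The labels give no dose of CHBP, and the methods and the results of the study give it in different units. The labels name the strain C57BL/6 for the CHBP- library and C57BL/7 for the CHBP+ library, whereas the methods name C57BL/6 for both. RNA of each condition was sequenced as 1 library, with no replicate. Differences are therefore given between 2 libraries with an interval for counting error, and CHBP and any other difference between these libraries cannot be told apart.

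S100 proteins mostly work as dimers that change shape when calcium binds and then dock onto partner proteins. Inside myeloid cells S100A8 and S100A9 form calprotectin, an abundant heterodimer that binds calcium, zinc and manganese and carries arachidonic acid to the phagocyte NADPH oxidase. Once outside the cell they act as alarmins, signals of damage or inflammation, through TLR4 and the receptor RAGE, and they are known for promoting the accumulation of MDSCs. The other members are better known for roles in the cytoskeleton and at membranes.

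The counted reads summed to 16484504 in CHBP- and 16280466 in CHBP+ M-MDSC. Of the genes, 10948 reached 1 FPKM (reads scaled by gene length and by the total of counted reads) in at least one library and were kept for counts of genes. The log2 ratio used throughout is log2((FPKM in CHBP+ + 1)/(FPKM in CHBP- + 1)), whose median over all genes kept was -0.03. Markers of the sorted cells were present in both libraries. Itgam, which encodes CD11b, was listed in 2 overlapping entries, whose log2 ratios were 0.56 and 0.61. Ly6c2, the main gene of the Ly6C antigen in monocytes, had 56.9 and 34.0 FPKM. Its log2 ratio was -0.73, further below 0 than that of any S100 member, and -0.68 without the trend with gene length described below. Ly6g, the granulocyte marker that the sort excluded, had 2.19 and 2.12 FPKM. Over fixed marker lists, the median log2 ratio was 0.15 for monocytes (9 entries kept, both of Itgam included) and 0.04 for macrophages (7). It was -0.36 for dendritic cells (6) and -0.13 for basophils and mast cells (5). After removal of the trend with gene length described below, these medians were -0.01, 0.12, -0.21 and 0.07, in the same order. The monocyte entries summed to 488 and 609 FPKM, with both Itgam entries counted, and the macrophage genes to 721 and 763 FPKM. The dendritic cell genes summed to 940.4 and 780.02 FPKM, and those of basophils and mast cells to 283 and 232 FPKM. The 4 T cell genes looked up (Cd3e, Cd3d, Cd3g and Lck) summed to 3.77 and 2.86 FPKM. In bulk RNA, fewer cells of a type and less RNA per cell cannot be told apart.

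All 9 genes lie on mouse chromosome 3, at the coordinates of the deposited table, and all 9 listed spans overlap the RefSeq gene of the same name on GRCm38. S100a1 (90511034 to 90514392), S100a13 (90514435 to 90524581), S100a3 (90560578 to 90602702), S100a4 (90603771 to 90606045), S100a6 (90612882 to 90624181), S100a8 (90668978 to 90670035) and S100a9 (90692632 to 90695721) follow each other in 1 block. S100a11 (93520488 to 93526287) and S100a10 (93555080 to 93564643) form a second block, 2824766 bases further on. The listed spans of S100a1 and S100a13 are 42 bases apart and point away from each other. None of the spans overlapped a gene with more than 2 reads in a library. S100a3 and S100a4 share Gm42674 as an overlapping gene (0 reads in CHBP- and 2 in CHBP+), and S100a3 also spans S100a2, which had no read.

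RefSeq promoter windows on GRCm38.p6, running from 250 bases before to 50 bases after a transcript start, were matched by symbol for 8 of the 9 genes. The 80 bases before the start are shown for the 3 most abundant members and for S100a4 and S100a6, which lie near each other and had unequal folds. They are written 5′ to 3′ on the strand of the gene, and the capitals mark TATAAA (the TATA box), GGGCGG (the GC box) and TGANTCA (the AP-1 motif).
S100a8, chr3:90668991-90669070, plus strand: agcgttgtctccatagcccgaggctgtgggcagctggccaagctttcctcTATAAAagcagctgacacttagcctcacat
S100a9, chr3:90695722-90695801, minus strand: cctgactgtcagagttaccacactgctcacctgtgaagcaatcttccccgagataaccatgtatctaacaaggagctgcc
S100a4, chr3:90603690-90603769, plus strand: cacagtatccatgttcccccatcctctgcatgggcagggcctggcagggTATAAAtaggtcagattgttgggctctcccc
S100a6, chr3:90612814-90612893, plus strand: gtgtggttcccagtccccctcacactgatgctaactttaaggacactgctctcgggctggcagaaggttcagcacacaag
S100a11, chr3:93520416-93520495, plus strand: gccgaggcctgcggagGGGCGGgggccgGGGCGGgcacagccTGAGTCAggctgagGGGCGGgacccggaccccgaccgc

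TATAAA began 30 bases before the start in S100a8 and 31 bases before it in S100a4. In S100a9 it began at base 1 of the RefSeq transcript, just beyond the bases shown. TATAAA also began 52 bases before a start of S100a3. On the gene's own strand, 1.80% of all 32851 windows held TATAAA starting 24 to 36 bases before the start. S100a11 held GGGCGG 3 times, at 64, 52 and 24 bases before the start, and TGANTCA at 136 and 38 bases before it. GGGCGG also lay 223 bases before the start of S100a9 and 116 bases before a start of S100a3. CCAAT, held by 37.4% of all windows, lay on the other strand 75 bases before a start of S100a3 and 228 bases before that of S100a6. Searched on both strands, 35.7% of all windows held GGGCGG and 7.81% held TGANTCA. A C/EBP motif, TTGCNNAA, lay 236 bases before the start of S100a9, where 10.8% of all windows held it somewhere. The S100a8 window held no match to it. These motifs can overlap each other, and a match is a match of letters only. The windows of S100a1 and S100a13, which run in opposite directions, shared 204 bases.

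The S100 genes spanned the whole range of expression, from near the top of the table to a handful of reads. S100a11, whose protein binds annexin A1, had 10712 reads (1272 FPKM) in CHBP- and 8069 reads (970 FPKM) in CHBP+ M-MDSC. S100a9 had 15224 and 11107 reads, or 1269 and 937 FPKM. By FPKM these genes ranked 21st and 22nd of all genes in CHBP- M-MDSC and 28th and 31st in CHBP+ M-MDSC. Their levels did not differ beyond counting error in CHBP- M-MDSC, where the ratio of S100a11 to S100a9 was 1.00 (95% interval 0.978 to 1.03), and were barely apart in CHBP+ M-MDSC (1.03, 1.01 to 1.07). S100a8 followed with 576 and 391 FPKM from 9348 and 6258 reads.

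A middle tier of 3 genes came next. S100a10, the annexin A2 partner also called p11, had 4471 and 3741 reads, or 167 and 142 FPKM. S100a6, or calcyclin, had 4143 and 2785 reads, or 130.2 and 88.6 FPKM. S100a4, which binds non-muscle myosin and is linked to cell motility, had 1233 and 1133 reads, or 89.7 and 83.4 FPKM. S100a6 lay above S100a4 by 1.45-fold (1.36 to 1.55) in CHBP- M-MDSC, whereas the levels of these genes were not distinguishable by counting error in CHBP+ M-MDSC (1.06-fold, 0.991 to 1.14).

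The lowest detected tier held the divergent neighbours. S100a1, best known for calcium handling in muscle, had 802 and 672 reads, or 38.8 and 32.9 FPKM. S100a13, which takes part in the release of proteins that lack a signal sequence, had 405 and 298 reads, or 34.4 and 25.6 FPKM. S100a3, a gene of the hair follicle, had 2 reads in each library, or 0.017 FPKM, and was below the 1 FPKM minimum. At 2 reads against 2, the fold of S100a3 could lie anywhere from 0.073 to 13.97, so a difference was not detectable at this depth.

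**Figure D1:**
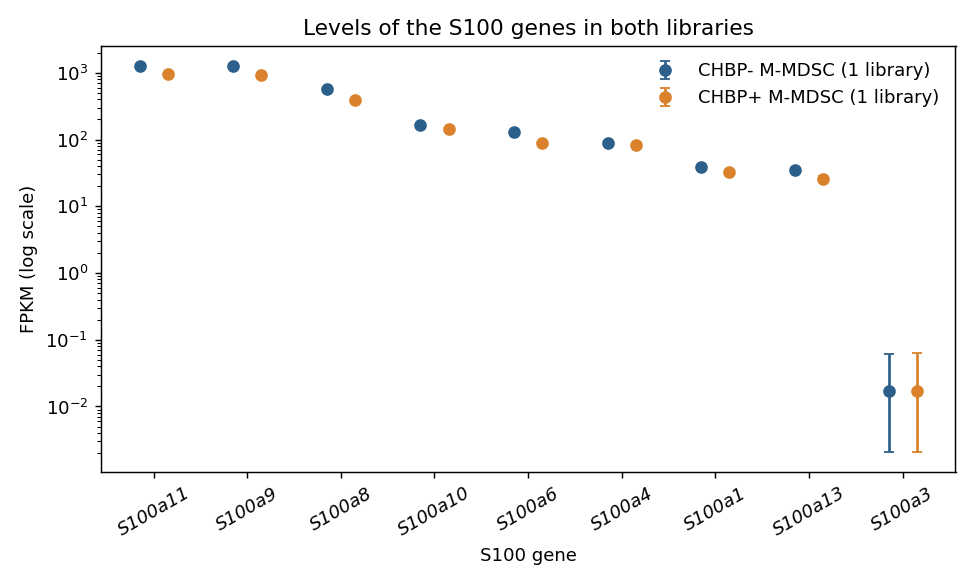
FPKM on a log scale of the 9 S100 genes in CHBP- (blue) and CHBP+ (orange) M-MDSC, 1 library each, ordered by the level in CHBP- M-MDSC; bars are exact 95% Poisson intervals for counting error and are smaller than the points for most genes. From S100a11 at 1272 and 970 FPKM down to S100a13 at 34.4 and 25.6 FPKM, every orange point lies below its blue partner, and S100a3 stands apart at 0.017 FPKM.

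The order of levels depends on the gene length behind the FPKM. The length that the deposited counts and FPKM imply was 984 bases for S100a8 and 1930 for S100a6, while their longest GENCODE M1 transcripts have 392 and 719 bases. Per length of the longest transcript, a choice made after seeing the data, the level of S100a8 was 1447 FPKM for CHBP- and 981 FPKM for CHBP+ M-MDSC, and that of S100a9 was 1779 and 1315 FPKM. On that scale the level of S100a11 was 0.879 of that of S100a8 in CHBP- and 0.989 in CHBP+ M-MDSC, rather than 2.21-fold and 2.48-fold above it by FPKM. It was below S100a9, at 0.715 and 0.738 of its level, so their closeness holds for the deposited FPKM only. S100a6 was above S100a4 by 2.33-fold in CHBP- and 1.70-fold in CHBP+ M-MDSC on that scale, so these genes were no longer close in CHBP+ M-MDSC. The fold in reads of a gene between the libraries does not involve its length.

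The 8 detected S100 genes all took a smaller share of the library in CHBP+ than in CHBP- M-MDSC. Together the 9 genes took 46340 reads, or 0.281% of the library (95% Clopper-Pearson interval 0.279 to 0.284), in CHBP- M-MDSC and 34065 reads, or 0.209% (0.207 to 0.211), in CHBP+ M-MDSC. Per library total, the summed reads were 0.744 of the CHBP- level (0.734 to 0.755). S100a8, S100a9 and S100a11 made up 76.1% of the members' reads in CHBP- and 74.7% in CHBP+ M-MDSC. No member was at least 1.5-fold apart in either direction, the fold used in the study's own criterion. Of all genes kept, 2.89% were at least 1.5-fold lower and 3.42% at least 1.5-fold higher. The counting intervals of S100a8 (0.656 to 0.700), S100a6 (0.648 to 0.714) and S100a13 (0.639 to 0.867) reached past a 1.5-fold decrease. Counting error therefore does not settle on which side of it these genes lie. The interval for counting error lay wholly below a fold of 1 for 7 of the 8 genes, the exception being S100a4. Over all genes kept, 31.0% had such an interval, and 53.7% had a log2 ratio below 0. Reads are not independent molecules, so the intervals cover counting error only and not the spread between cultures.

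The calprotectin genes were both lower in the CHBP+ library. S100a8 had a log2 ratio of -0.56, with a fold in reads of 0.678 (0.656 to 0.700), which is 32.2% lower. S100a9 had a log2 ratio of -0.44, with a fold of 0.739 (0.721 to 0.757), or 26.1% lower. Summed over both genes, the level was 1845 FPKM in CHBP- and 1328 FPKM in CHBP+ M-MDSC, which is -0.47 on the log2 scale. The fold of S100a8 was 0.918 of that of S100a9 (0.881 to 0.956), so the genes of the heterodimer did not shift by the same factor within counting error. The FPKM ratio of S100a9 to S100a8 was accordingly 2.20 (2.15 to 2.26) in CHBP- and 2.40 (2.33 to 2.47) in CHBP+ M-MDSC. Per length of the longest GENCODE M1 transcript it was 1.23 and 1.34.

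S100a8 and S100a9 are also abundant in neutrophils and their precursors. Among 15 neutrophil genes looked up, 14 were kept, of which 11 had a log2 ratio below 0 and 3 above, with a median of -0.21. With the length trend removed, 7 were above 0 and 7 below, with a median of -0.04. Prtn3 and Elane, proteases of the primary granules, had log2 ratios of -0.77 and -0.69, and Lcn2 had -0.58. Mmp8, a collagenase of neutrophil granules, went the other way, with 1290 FPKM in CHBP- and 1546 FPKM in CHBP+ M-MDSC. None of the 15 was without reads. The list summed to 2027 and 2100 FPKM, of which Mmp8 alone made up 1290 and 1546 FPKM, so the sum mainly follows Mmp8. The part of these neutrophil genes in the difference of S100a8 and S100a9 was not tested.

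S100a6 was as far apart between the libraries as S100a8. Its log2 ratio was -0.55 and its fold in reads 0.681 (0.648 to 0.714), which did not differ from the fold of S100a8 beyond counting error (ratio of the folds 1.00, 0.947 to 1.06). S100a4, which lies 6836 bases from S100a6, had the smallest difference, a log2 ratio of -0.10 and a fold of 0.930 (0.858 to 1.01) that reached 1. The fold of S100a4 was 1.37 times that of S100a6 (1.24 to 1.503). Among 28 pairs of members with at least 10 reads, 17 had folds that differed beyond counting error, with intervals not adjusted for the number of pairs. The share among pairs of other genes with like read counts was not computed, so this count does not set the S100 genes apart.

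The annexin partners lay between these extremes. S100a11 had a log2 ratio of -0.39 and a fold of 0.763 (0.741 to 0.785). S100a10, the only member whose protein has lost calcium binding, had a log2 ratio of -0.24 and a fold of 0.847 (0.811 to 0.885). The fold of S100a10 was 1.11 times that of S100a11 (1.05 to 1.17).

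Of the divergent neighbours, S100a1 had a log2 ratio of -0.23 and a fold of 0.848 (0.765 to 0.941). S100a13 had a log2 ratio of -0.41 and a fold of 0.745 (0.639 to 0.867). Their folds were not distinguishable, with a ratio of S100a1 to S100a13 of 1.14 (0.946 to 1.37).

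**Figure D2:**
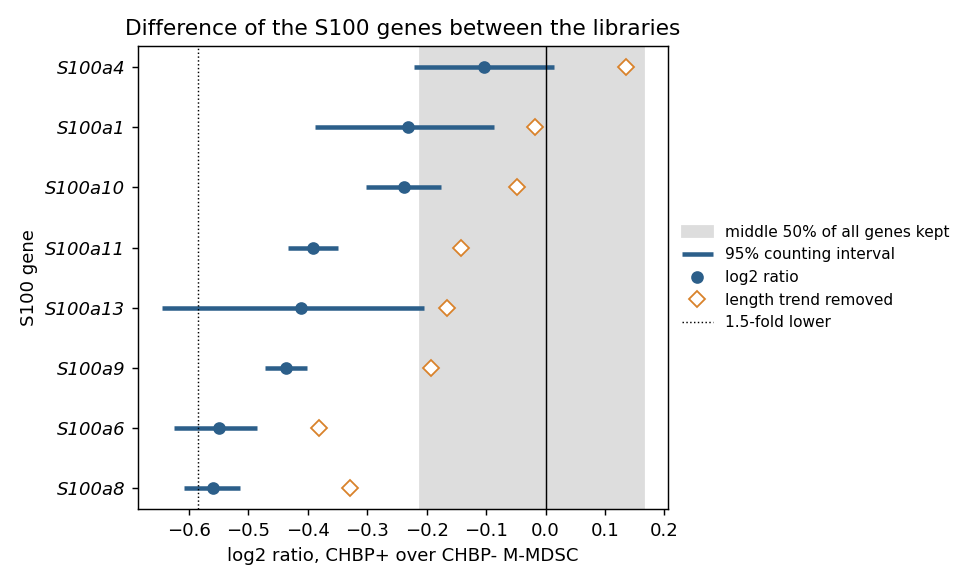
Log2 ratio of CHBP+ over CHBP- M-MDSC for the 8 detected S100 genes (blue points), with the exact 95% interval for counting error of the read fold (blue lines), the value after the trend with gene length was removed (orange diamonds), the middle 50% of all genes kept (grey) and a 1.5-fold decrease (dotted). The points run from -0.56 for S100a8 to -0.10 for S100a4, and all diamonds lie to the right of their points.

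Gene length moved with these differences. Over all genes kept, which were divided into 10 groups of equal size by implied length, the median log2 ratio went from -0.30 in the shortest group (up to 1391 bases) to 0.23 in the longest. S100 genes are short, with 6 of the 8 in the shortest group and 2, S100a6 and S100a10, in the next, whose median was -0.21. Among the 2190 genes of these 2 groups, 79.5% had a log2 ratio below 0, 50.6% had a counting interval wholly below 1 and 8.45% were at least 1.5-fold lower. The median log2 ratio of the 8 S100 genes was -0.40. Of the 8, 6 lay under the median of their own length group.

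Within its length group, S100a6 was at percentile 6.85 and S100a8 at percentile 14.2. S100a9, S100a13, S100a11 and S100a10 were at percentiles 27.9, 31.7, 34.9 and 43.7. S100a1 and S100a4 were above the median of their group, at percentiles 59.1 and 72.0. With the trend removed by a cubic polynomial fitted to all genes kept, the median of the 8 genes was -0.15, S100a6 stood at -0.38, S100a8 at -0.33 and S100a9 at -0.19, and S100a4 turned to 0.14. The spread of all genes kept around the trend had an SD of 0.303, which S100a6 and S100a8 exceeded and the other 6 did not. The share of all genes kept that lay beyond this SD was not computed, so the count does not set the S100 genes apart. These percentiles and this SD rest on the implied length. With the longest GENCODE M1 transcript as the length, S100a6 was at -0.23 and S100a8 at -0.21, which are smaller differences. The SD around that trend is not given here. The source of the trend was not tested.

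**Figure D3:**
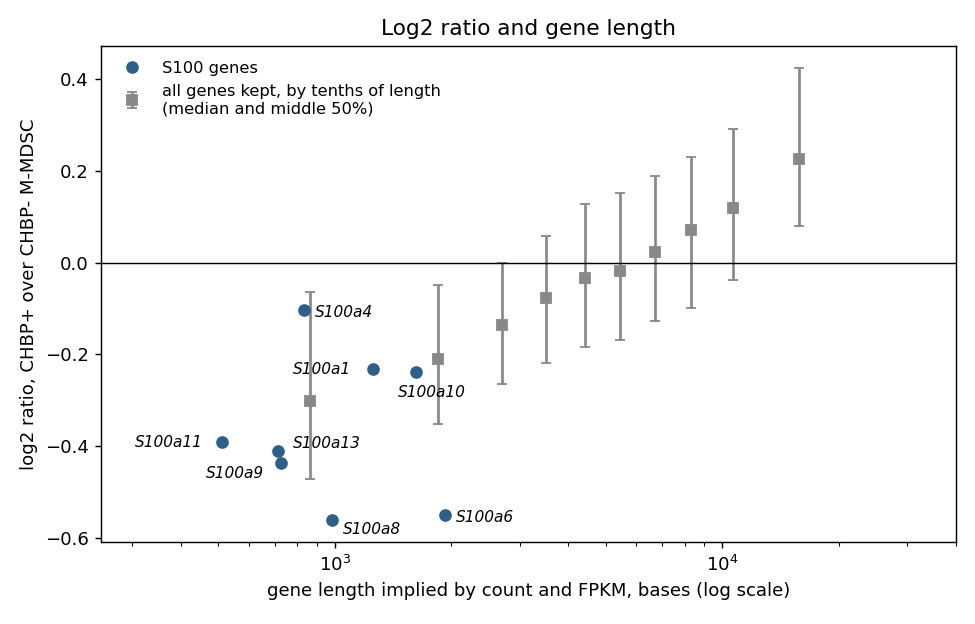
Log2 ratio of CHBP+ over CHBP- M-MDSC against gene length in bases (log scale), for the 8 detected S100 genes (blue points) and for all genes kept in 10 groups of equal size by length (grey squares with the median and the middle 50%, placed at the group's median length). The grey medians rise from -0.30 to 0.23, and S100a6 and S100a8 lie below the middle 50% of the groups at their length.

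Beyond the listed members, the S100 family was almost silent. The table held 8 of 10 further S100 genes looked up, and S100a2, S100g and S100z had no read, which allows up to 0.182 CPM (reads scaled by the total alone) in CHBP- and 0.184 CPM in CHBP+ M-MDSC at the level of 3 reads. S100a5 had 4 and 2 reads, S100a7a had 4 and 0, S100b had 1 and 2, S100a14 had 0 and 1, and S100a16 had 1 and 0. No fold can be drawn from such counts. S100a5 lies between S100a4 and S100a6, so a gene with a few reads sat between neighbours with at least 1133.

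Of 7 genes for receptors of released S100 proteins, 5 were kept, 4 of them with a log2 ratio above 0 and 1 below, with a median of 0.19. These are long genes, with a median implied length of 8348 bases, and the length group from 7413 to 9369 bases had a median of 0.07 over all genes kept. With the length trend removed, 3 receptors were above 0 and 2 below, with a median of 0.09. Tlr4, the receptor of S100A8 and S100A9 that senses lipopolysaccharide, had 556 reads (4.99 FPKM) in CHBP- and 4443 reads (40.4 FPKM) in CHBP+ M-MDSC. With a log2 ratio of 2.79 it was the only one of the 5 at least 1.5-fold apart. Ager, which encodes RAGE, was low in both libraries, with 58 and 52 reads and 0.583 and 0.529 FPKM, as was Mcam with 19 and 34 reads. Bsg, or basigin, a further receptor of S100A9, was the gene below 0, with 57.2 and 45.2 FPKM. Cd36 (6.57 and 7.99 FPKM), Alcam (30.6 and 35.0 FPKM) and Nptn (8.75 and 9.39 FPKM) had log2 ratios of 0.25, 0.19 and 0.09.

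The intracellular partners ranged from 2.44 FPKM (Tpm1) to 288 FPKM (Anxa2) in CHBP- M-MDSC. The counting interval of the fold lay wholly below 1 for 3 of them and wholly above 1 for 3. Over all genes kept, the shares were 31.0% below and 27.9% above, so these counts are near those of all genes. All 9 partner genes were kept, 6 with a log2 ratio below 0 and 3 above, with a median of -0.05 and 1 at least 1.5-fold apart. Anxa2, the partner of S100a10, had 288 FPKM in CHBP- and 260 FPKM in CHBP+ M-MDSC, with a log2 ratio of -0.15 against -0.24 for S100a10. Anxa1, the partner of S100a11, had 213 and 188 FPKM, a log2 ratio of -0.18 against -0.39. Cacybp, which encodes the calcyclin-binding protein, had 46.0 and 39.1 FPKM, a log2 ratio of -0.23 against -0.55 for S100a6. Myh9, the non-muscle myosin heavy chain bound by S100a4, had 97.4 and 122 FPKM, a log2 ratio of 0.33. Ahnak, a very large scaffold protein that binds S100a10 with annexin A2, was the gene past 1.5-fold, at 18.9 and 41.4 FPKM and a log2 ratio of 1.09. Myh9 and Ahnak are long genes, and with the length trend removed Myh9 was at 0.12 and Ahnak at 0.82. On that scale Anxa2 was at -0.09 against -0.05 for S100a10, so their order was reversed. Anxa1 was at -0.11 against -0.14 for S100a11, and Cacybp at -0.13 against -0.38 for S100a6.

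The NADPH oxidase that calprotectin serves was unevenly placed. None of its 6 subunit genes was 1.5-fold apart, 4 had a log2 ratio below 0 and 2 above. Cyba, the short gene of the p22phox subunit, had 632 and 446 FPKM, a log2 ratio of -0.50, which was -0.26 with the length trend removed. Cybb, which encodes the catalytic subunit, had 102 and 141 FPKM, a log2 ratio of 0.46, and 0.44 with the trend removed. On that scale 1 of the 6 was above 0 and 5 below.

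Transcription factors of the C/EBP family, which act on the S100a8 and S100a9 genes in myeloid cells, were lower in the CHBP+ library. Cebpb had 61.2 and 40.9 FPKM, a log2 ratio of -0.57 and a fold in reads of 0.668 (0.616 to 0.724). Cebpe had 53.9 and 36.02 FPKM (log2 ratio -0.57), Cebpd 10.3 and 7.08 FPKM (-0.48) and Cebpa 15.4 and 12.998 FPKM (-0.23). Of the 9 transcription factor genes looked up, 7 had a log2 ratio below 0, none was 1.5-fold apart, and the median was -0.23. Hif1a (113 and 132 FPKM) and Stat3 (10.5 and 12.1 FPKM) were the genes above 0. Of the other 3, Spi1 had a log2 ratio of -0.25, Irf8 of -0.04 and Klf4 of -0.03. With the length trend removed, Cebpb was at -0.37, Cebpe at -0.35, Cebpd at -0.26, Cebpa at -0.20 and Stat3 at -0.05. A link of these genes to the difference of S100a8 and S100a9 was not tested.

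**Figure D4:**
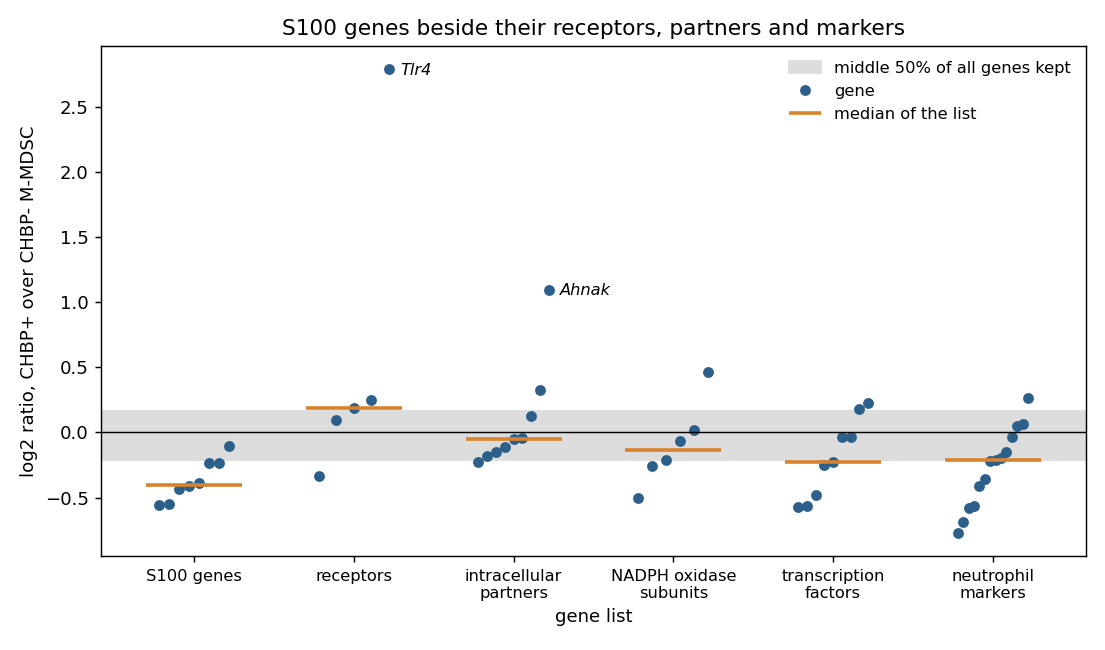
Log2 ratio of CHBP+ over CHBP- M-MDSC for each gene kept (blue points) of the S100 genes, their receptors, intracellular partners, NADPH oxidase subunits, transcription factors and neutrophil markers, with the median of each list (orange) and the middle 50% of all genes kept (grey). The S100 genes all lie below 0 with a median of -0.40, while the receptors have a median of 0.19 with Tlr4 at 2.79, and Ahnak stands at 1.09 among the partners. The S100 genes are short and the receptor genes long. With the length trend removed, which is not plotted, these medians are -0.15 for the S100 genes and 0.09 for the receptors.

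Genes with the level most like that of a member in both libraries were sought by the distance in log2(FPKM + 1), a likeness over 2 libraries only. For S100a9 and for S100a11 these were Rpsa (1233 and 961 FPKM) and Rps26 (1196 and 932 FPKM), which encode ribosomal proteins. For S100a8 they were mt-Nd3 (597 and 403 FPKM), a mitochondrial gene of respiratory complex I, and Cstb (541 and 409 FPKM), which encodes a cysteine protease inhibitor. For S100a10 they were Tpi1 (170 and 143 FPKM), a glycolytic enzyme, and Eif3e (168 and 145 FPKM), a translation initiation factor.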

How the data were processed

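mRNA of 2 M-MDSC libraries, 1 per condition, was grouped by the treatment label. The authors trimmed adapters and low-quality bases and removed reads under 25 bases and ribosomal reads. The paper names TopHat2, HT-seq, DESeq and mm9, whereas the submitters' processing notes name HISAT2 2.0.4, Cufflinks 2.1.1, Cuffdiff, mm10 and GRCm38. Which of these made the table was not resolved, and the handling of strand and multi-mapped reads is not given in the sources used here. The authors deposited raw counts per gene and FPKM, and the FPKM equal the count per length and per total of counts.

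Log2 ratios used a pseudocount of 1 FPKM and genes that reached 1 FPKM in either library. No model or test between conditions was run, since 1 library per condition leaves no replicate spread. Intervals are 95% Clopper-Pearson (folds, shares), conditional exact (ratios of folds) or Poisson (FPKM). Scaling factors came from edgeR 4.0.16 and DESeq2 1.42.0 in R 4.3.3, and the rest from Python 3.11.15, numpy 2.4.6, pandas 2.3.3, scipy 1.17.1 and matplotlib 3.10.9. The steps were run on simulated Poisson counts with a planted length trend and planted changes larger than those of the S100 genes. The simulation held no spread between cultures, and its outcome is not given here.

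The members, the gene lists and the alternatives were chosen with earlier results of these data known. The genes named are the 9 members, every gene of the fixed lists, and the nearest genes by level of the 4 most abundant members. The protein sequences and their identity were not analysed here. Promoter windows are from RefSeq (GRCm38.p6), and GENCODE M1 (mm9) served only for transcript length, which 95.98% of the genes kept had, matched on gene ID.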

Additional observations from a re-analysis of the deposited data

How the results depend on the processing

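With a pseudocount of 0.1 FPKM, CPM in place of FPKM, trimmed mean of M values or DESeq2 size factors, the 9 members' log2 ratios, the sum of S100a8 and S100a9 and the members' median stayed within counting error of the values given. The count of members at least 1.5-fold apart was 0 in each direction under all alternatives run. With the median log2 ratio of all genes set to 0, S100a8 and S100a9 together were at -0.45 and the members' median at -0.37. Removal of the length trend took these values to -0.23 and -0.15, and with the longest GENCODE M1 transcript as the length, chosen after seeing the data, to -0.13 and -0.066. With that length S100a1 turned to 0.099, S100a10 to 0.091 and S100a4 to 0.24, while 5 members stayed below 0. These were S100a6 (-0.23), S100a8 (-0.21), S100a9 (-0.093), S100a13 (-0.086) and S100a11 (-0.046). The source of the trend was not tested. Summing S100a3 with the overlapping S100a2 left it as it was, since S100a2 had no read, and no other member overlaps an S100 gene. Depth limits S100a3. No paired analysis was possible because each condition has 1 library, and no replicate could be left out.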
